A study of Nasonia vitripennis with 70 samples.

Results

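The transcripts described here are oskar, nanos and Hb (hunchback), 3 genes taken by name from the 14621 genes of a count table and the 14613 genes of a TPM table (a transcript level scaled for transcript length and library size) for the parasitoid wasp Nasonia vitripennis. All 3 were found in both tables. The 70 libraries are poly(A) RNA-seq of heads and abdomens from wasps of the WGDL line, taken 1 day after emergence. This line was derived from a colchicine-induced doubling of the genome, and every group here carries that history, the diploid females and the haploid males included. Triploid and diploid females were sampled at generations F14 and F2, and diploid and haploid males at generations F15 and F5. Each of these 8 kinds of wasp gave a head group and an abdomen group, 16 groups in all with 4 or 5 libraries each. The labels do not say whether a library holds 1 animal or a pool, nor whether replicates were reared apart, so p-values measure the spread between these libraries only.

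Females of holometabolous insects load their eggs with mRNA that patterns the embryo before its own genome is read. In Nasonia the ovary is of the meroistic type, in which nurse cells make RNA and pass it to the oocyte. The oskar product organises the germ plasm, the posterior cytoplasm of the egg from which the germ cells arise. The nanos product is a translational repressor that acts at the posterior of the embryo, where hunchback mRNA is a known target. Hunchback is a zinc finger transcription factor whose maternal and zygotic products pattern the anterior of the embryo. An abdomen with ovaries therefore holds the source of the maternal mRNA, and a head or a male abdomen has no ovaries.

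Library totals ranged from 12163580 to 25061605 expected counts. Depth went with ploidy at F14, with little overlap: the triploid female abdomens held 12301019 to 17756413 counts, against 17675604 to 24973776 in the diploid ones. At F2 the ranges overlapped, at 21041026 to 24509439 in triploids and 20455560 to 24703219 in diploids. The part of depth in the F14 values was not tested. The library C46 is labelled a diploid male abdomen of F5 and goes against that label. It held 3337 TPM of the long-wavelength opsin Lop1, where the highest of the other 34 abdomens had 2.54 and the lowest of 35 heads had 934. Its Pdf level was 774 TPM, above the 1.54 TPM that was the highest in the other abdomens. It stays in the fits as the library labelled a diploid male abdomen, and results from the abdomen fit were also computed without it. The fit of male abdomens and heads kept it, and no result of that fit was computed without it.

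In female abdomens all 3 transcripts were abundant, and in all 17 libraries oskar was the highest per length, nanos the next and Hb the lowest. On the TPM scale, triploid abdomens of F14 had less of all 3 on average than the other female abdomens. That group was uneven: library C69 was the lowest for each gene, and library C68 was at or near the level of the diploids. None of the 3 genes passed the threshold for ploidy at either generation in the count test over all 12308 genes tested in abdomens (edgeR quasi-likelihood test, Benjamini-Hochberg adjusted p below 0.05), which called 19.9% of genes at F14 and 7.49% at F2. At an unadjusted p below 0.05 edgeR counted 1 of the 3 at F14 and 0 at F2, against 4401 and 3028 of all 12308 tested genes. DESeq2 at its adjusted threshold also called 1 of the 3 at F14 and 0 at F2, against 3346 and 1580 genes. The member counts at F14 are near the shares over all genes. In whole abdomens, fewer germ cells and less RNA per germ cell cannot be told apart.

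For oskar, the organiser of the germ plasm, the triploid abdomens of F14 had 575, 778, 903 and 548 TPM, against 952, 1021, 910 and 995 TPM in the diploid abdomens of F14. The 2 sets of libraries did not overlap, although library C68 at 903 TPM was close to the lowest diploid at 910 TPM. How many of all genes separate in this way was not counted. At F2 the triploid abdomens had 994, 1067, 983, 787 and 937 TPM, against 939, 885, 898 and 924 TPM in diploid abdomens. These overlapped, and library C39 was the lowest of the 9. In the count test the log2 fold change of triploids over diploids was -0.22 ± 0.24 (SE) at F14 (edgeR adjusted p = 0.529). At F2 it was 0.10 ± 0.23 (SE; edgeR adjusted p = 0.814). The scale matters for these small differences: at F14 the median of all tested genes lay at 0.17 on the count scale and at -0.09 as a difference of log2(TPM + 1), on which oskar differed by -0.50.

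For nanos, the posterior repressor, the triploid abdomens of F14 had 235, 161, 569 and 88.1 TPM, against 540, 691, 497 and 585 TPM in diploid abdomens. Libraries C66, C67 and C69 lay below every diploid, while C68 at 569 TPM lay among them. At F2 the triploids had 358, 554, 421, 397 and 499 TPM, against 303, 250, 313 and 411 TPM in diploids. The order of the means was thus the opposite one at F2, where the triploid mean was the higher and the diploid library C30 lay among the triploids. The log2 fold change was -0.95 ± 0.46 (SE) at F14 (edgeR adjusted p = 0.136) and 0.51 ± 0.43 (SE) at F2 (edgeR adjusted p = 0.474). The F14 value passed the threshold with DESeq2 (-1.0, adjusted p = 0.0473), with limma on log2(TPM + 1) (-1.45, adjusted p = 0.00479) and in edgeR without library C68 (-1.52, adjusted p = 0.0104). It did not pass with limma on log2(TPM + 0.1) (-1.46, adjusted p = 0.0817), so the limma call turns on the pseudocount, nor in the compared groups alone (-0.95, edgeR adjusted p = 0.173), with RLE size factors (edgeR adjusted p = 0.12) or with no filter (edgeR adjusted p = 0.117).

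For Hb, the anterior patterning factor, the triploid abdomens of F14 had 85.7, 55.3, 111 and 24.1 TPM, against 173, 200, 136 and 156 TPM in diploid abdomens. The groups did not overlap, and the diploids of F14 had the highest group mean of the series for this gene. The share of all genes without such overlap was not counted. At F2 the triploids had 47, 54.6, 56.1, 148 and 69 TPM, against 103, 95.1, 134 and 70.8 TPM in diploids. Here 4 of the 5 triploid libraries lay below every diploid, and the fifth, C39, lay above every diploid. The log2 fold change was -1.07 ± 0.70 (SE) at F14 (edgeR adjusted p = 0.27) and -0.38 ± 0.65 (SE) at F2 (edgeR adjusted p = 0.752). The F14 value passed the threshold only with limma on log2(TPM + 1), of the alternatives run (-1.45, adjusted p = 0.0235), and not with a pseudocount of 0.1 (-1.46, adjusted p = 0.128). Without C39 the F2 value was -0.90 (edgeR adjusted p = 0.47).

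**Figure D1:**
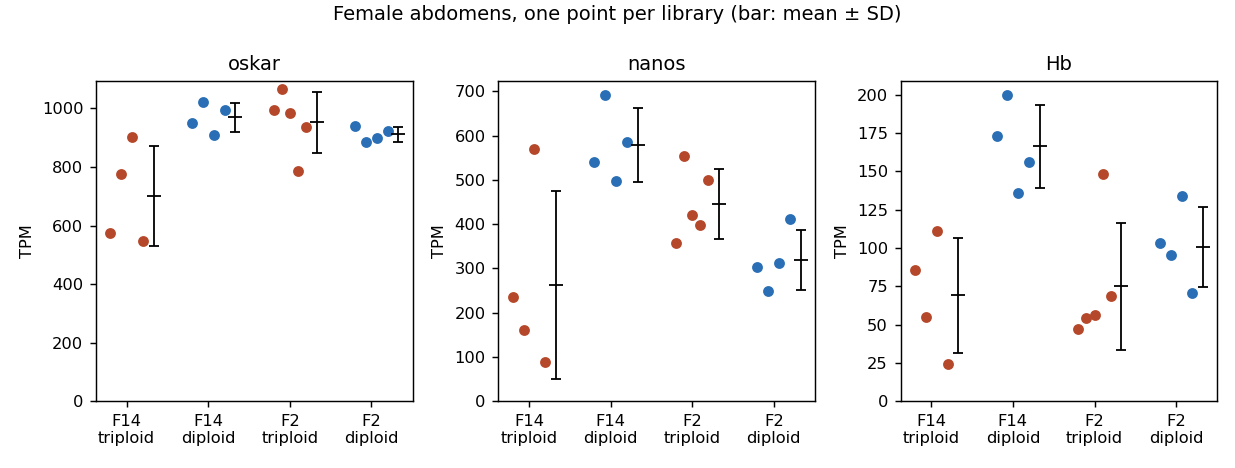
TPM of oskar, nanos and Hb in each female abdomen library (points, vertical axis from 0) for the 4 groups on the horizontal axis, with the group mean and SD as a bar. The triploids of F14 spread from 548 to 903 TPM for oskar, from 88.1 to 569 TPM for nanos and from 24.1 to 111 TPM for Hb, and the single high triploid point of Hb at F2 is the library at 148 TPM.

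Whether the ploidy effect differed between generations was tested as the effect at F14 minus that at F2, a contrast in which 32.9% of all tested genes were called. None of the 3 genes was. At an unadjusted p below 0.05 edgeR counted 1 of the 3, against 5488 of all 12308 tested genes. DESeq2 called 1 of 3, nanos. Over the alternatives, DESeq2 among them, 3482 to 4981 genes were called here. These counts do not set the members apart from all genes. The difference was -1.46 ± 0.63 (SE) for nanos (edgeR adjusted p = 0.0747), -0.32 ± 0.33 (SE) for oskar (edgeR adjusted p = 0.472) and -0.69 ± 0.96 (SE) for Hb (edgeR adjusted p = 0.599). The nanos value is the one that moved across the threshold. It was called without library C46 (-1.46, edgeR adjusted p = 0.043), with DESeq2 (-1.48, adjusted p = 0.0245), with limma on log2(TPM + 1) (-1.94, adjusted p = 0.00332), in the female abdomens alone (-1.45, edgeR adjusted p = 0.0209) and without library C68 (-2.03, edgeR adjusted p = 0.00685). It was not called with limma on log2(TPM + 0.1) (-1.94, adjusted p = 0.0765), with RLE size factors (-1.48, edgeR adjusted p = 0.0754) or with no filter (-1.50, edgeR adjusted p = 0.0777).

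Set by generation within a ploidy, the triploid abdomens of F14 had the lower mean of oskar, 701 ± 169 TPM (SD, n = 4), against 953 ± 104 TPM in triploids of F2 (SD, n = 5). The log2 fold change of F14 over F2 in triploids was -0.53 ± 0.23 (SE) for oskar (edgeR adjusted p = 0.0601), -0.98 ± 0.44 (SE) for nanos (edgeR adjusted p = 0.0737) and -0.26 ± 0.66 (SE) for Hb (edgeR adjusted p = 0.767). No member passed, in a contrast that called 42.2% of tested genes. Without library C46 oskar (edgeR adjusted p = 0.0252) and nanos (edgeR adjusted p = 0.0436) passed at unchanged fold changes, as both did with DESeq2 (adjusted p = 0.00298 for oskar and 0.0255 for nanos) and without library C68 (edgeR adjusted p = 0.0437 for oskar and 0.00482 for nanos). In limma on log2(TPM + 1) nanos also passed (-1.07, adjusted p = 0.00914) and oskar did not (-0.47, adjusted p = 0.0616). With limma on log2(TPM + 0.1) the adjusted p was 0.15 for both genes. In the compared groups alone neither passed (edgeR adjusted p = 0.0926 for nanos and 0.0597 for oskar), nor did either with RLE size factors (edgeR adjusted p = 0.0784 for nanos and 0.056 for oskar) or with no filter (edgeR adjusted p = 0.0841 for nanos and 0.0599 for oskar). For Hb the sign turned without library C39, to 0.20 (edgeR adjusted p = 0.83).

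In diploid abdomens no member was called between generations either, in a contrast that called 0.171% of tested genes (edgeR, with 0 of 3 at an unadjusted p below 0.05, and 0 of 3 by DESeq2). Of all 12308 tested genes, 1776 were at an unadjusted edgeR p below 0.05, and DESeq2 called 463. The log2 fold change of F14 over F2 was 0.48 ± 0.45 (SE) for nanos (edgeR adjusted p = 0.691) and 0.43 ± 0.69 (SE) for Hb (edgeR adjusted p = 0.845). For oskar it was -0.22 ± 0.24 (SE; edgeR adjusted p = 0.744), a sign that turned on the TPM scale, where the means were 969 ± 48.7 TPM at F14 and 911 ± 24.8 TPM at F2 (SD, n = 4 each). Fitted on these 2 groups alone, the oskar value was -0.24 and passed (edgeR adjusted p = 0.0215). On the TPM scale the nanos libraries of F14, all at or above 497 TPM, lay above all those of F2, at or below 411 TPM. Those of Hb, at or above 136 TPM at F14, lay above all those of F2, at or below 134 TPM. How many of all genes separate in this way was not counted, and the median of all tested genes differed by 0.15 in log2(TPM + 1) here.

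A ratio of 2 transcripts within a library is free of library size. The nanos to oskar ratio of TPM averaged 0.352 ± 0.215 in triploid abdomens of F14 (SD, n = 4) and 0.595 ± 0.0573 in diploids (SD, n = 4). At F2 it averaged 0.469 ± 0.0732 in triploids (SD, n = 5) and 0.349 ± 0.0686 in diploids (SD, n = 4). The triploid ratio was thus below the diploid one at F14 and above it at F2. Within a generation neither difference passed an exact two-sided permutation test on the log2 ratio (F14, -0.96, raw p = 0.114; F2, 0.43, raw p = 0.0635), with adjusted p = 0.171 at F14 and 0.127 at F2 over the 6 ratio tests. The difference between the 2 effects, a test chosen after the values were seen, was -1.39 on the log2 scale (exact permutation of ploidy within generation, 8820 arrangements, raw p = 0.0059, adjusted p = 0.0177 over 3 pairs). The null of this test is no ploidy effect at either generation, so it does not test equal effects. The SD of the log2 ratio at F14 was 0.90 in triploids and 0.14 in diploids. Without any single diploid library of F14 (C76, C77, C78 or C79) the adjusted exact p of the difference lay between 0.0585 and 0.0762.

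The Hb to oskar ratio averaged 0.0968 ± 0.0478 in triploids of F14 and 0.171 ± 0.0215 in diploids (SD, n = 4 each), and the lowest diploid ratio of 0.150 was just above the highest triploid ratio of 0.149. Its log2 difference at F14 was -0.97 (exact permutation test, two-sided, p = 0.0286, the smallest that 4 against 4 allows, and adjusted p = 0.127). At F2 the Hb to oskar ratio averaged 0.0834 ± 0.0593 in triploids (SD, n = 5) and 0.111 ± 0.0297 in diploids (SD, n = 4), a log2 difference of -0.59 (exact permutation p = 0.238, adjusted p = 0.286). The Hb to nanos ratio was near equal at F14, at 0.294 ± 0.0757 in triploids and 0.288 ± 0.0240 in diploids (SD, n = 4 each; log2 difference -0.01, exact permutation p = 0.971). At F2 it averaged 0.175 ± 0.112 in triploids (SD, n = 5) and 0.331 ± 0.111 in diploids (SD, n = 4; log2 difference -1.01, exact permutation p = 0.0476, adjusted p = 0.127). The ploidy effects on these 2 ratios were not shown to differ between generations (exact permutation, adjusted p = 0.603 for Hb to oskar and 0.13 for Hb to nanos).

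**Figure D2:**
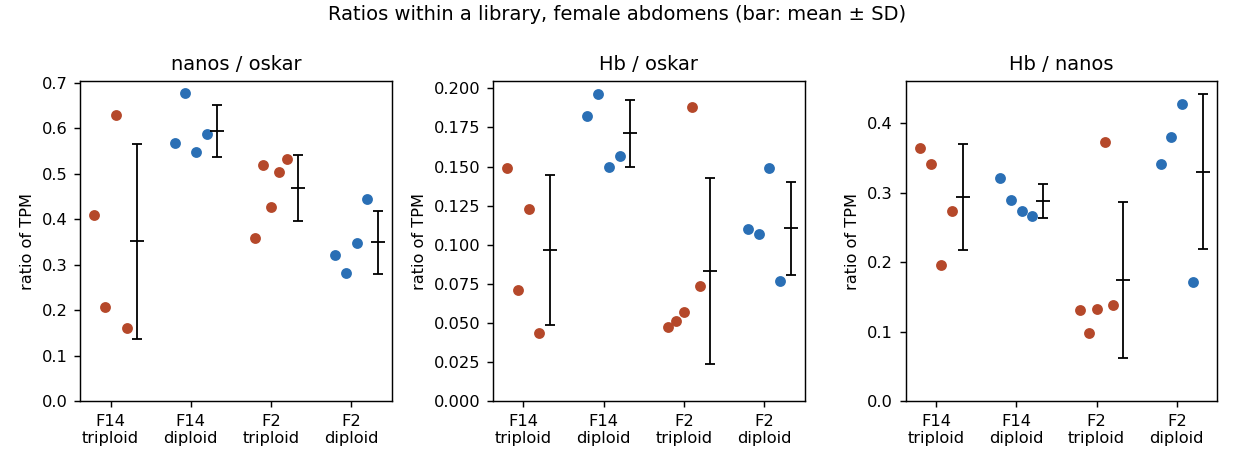
Ratios of TPM between 2 transcripts of the same library in the 4 female abdomen groups, a point per library with the group mean and SD as a bar. The nanos to oskar points of F14 diploids lie between 0.547 and 0.677 and those of F2 diploids between 0.283 and 0.444, while the F14 triploids span 0.161 to 0.630.

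Among the 17 female abdomens the members were also compared as deviations of log2(TPM + 1) from their group mean. Pearson's r was 0.68 between oskar and nanos (permutation within groups, p = 0.122, adjusted p = 0.183 over 3 pairs) with Spearman's rho 0.41 (permutation p = 0.224, adjusted p = 0.453). Between nanos and Hb r was 0.61 (permutation p = 0.122, adjusted p = 0.183) with rho 0.32 (permutation p = 0.302, adjusted p = 0.453). Between oskar and Hb r was 0.15 (permutation p = 0.782, adjusted p = 0.782) and rho was -0.08 (permutation p = 0.798, adjusted p = 0.798). No pair passed, and the positive values of r fell when 2 triploid libraries of F14 were left out. Without C68 and C69, the libraries farthest from the median, r was 0.05 for oskar and nanos, 0.00 for nanos and Hb and -0.69 for oskar and Hb. The group means were not taken again without them. The remaining F14 triploids thus kept deviations set partly by the libraries left out.

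Other genes of egg and embryo patterning were looked up from lists. Of 32 names for germ plasm and maternal mRNA control, besides the members only Egl was found, whose Drosophila namesake egalitarian links mRNAs to the dynein motor. Of 40 names for segmentation and axis patterning 5 others were found: Cad (caudal) and Gt (giant), which have maternal mRNA in Nasonia, the gap gene Kr (Krüppel), and the pair-rule genes Eve (even skipped) and hairy. Of the 13 names for yolk and eggshell none was matched. At F14, where 19.9% of genes were called, 2 of these 6 genes passed for ploidy, in opposite directions, and at F2 0 of 6 did (edgeR, with 1 of 6 at an unadjusted p below 0.05, and 0 of 6 by DESeq2). The median log2 fold change of the 5 segmentation genes was -0.34 at F14, against 0.17 over all tested genes, and 0.37 at F2, against -0.02.

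Egl was lower in triploids of F14, at 64.5 ± 17.7 TPM, against 109 ± 19.4 TPM in diploids (SD, n = 4 each; log2 fold change -0.50 ± 0.17 SE, edgeR adjusted p = 0.0308). Hairy was higher there, at 23.8 ± 10.6 TPM, against 13.6 ± 3.86 TPM in diploids (SD, n = 4 each; log2 fold change 1.09 ± 0.39 SE, edgeR adjusted p = 0.049). Neither call was firm. The hairy call was lost in 5 of the 7 alternatives, among them RLE size factors (edgeR adjusted p = 0.068), and the Egl call was lost in the compared groups alone (edgeR adjusted p = 0.102). Without library C69 the adjusted p was 0.146 for Egl and 0.109 for hairy (edgeR), and without library C66 it was 0.0851 for Egl and 0.223 for hairy (edgeR). Each single diploid library of F14, when left out, also ended the hairy call, as did C67, and leaving out C76, C77 or C79 ended the Egl call.

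The remaining 4 genes were not called by edgeR. Cad had 41 ± 24.9 TPM in triploids of F14 and 89.8 ± 18 TPM in diploids (SD, n = 4 each; log2 fold change -0.92 ± 0.61 SE, edgeR adjusted p = 0.281). Kr had 11.4 ± 7.61 TPM in triploids and 27 ± 5.03 TPM in diploids (SD, n = 4 each; log2 fold change -1.10 ± 0.91 SE, edgeR adjusted p = 0.385). Of the alternatives run, limma on log2(TPM + 1) alone called Kr (-1.37, adjusted p = 0.015). In each of Cad, Gt and Eve, library C68 was the highest triploid of F14, and C39 was the highest triploid of F2. In C39 Cad stood at 150 TPM, Eve at 176 TPM and Gt at 559 TPM, beside the Hb value of 148 TPM.

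Markers of other abdominal tissue were also looked up in the abdomens of F14. Of 3 muscle genes, Tm1 (log2 fold change 1.56 ± 0.46 SE, edgeR adjusted p = 0.0164) and Zasp66 (2.87 ± 0.67 SE, edgeR adjusted p = 0.00404) were higher in triploids by edgeR and Tm2 was not called (-0.06 ± 0.51 SE, edgeR adjusted p = 0.944). Their summed level ranged from 721 to 5449 TPM in triploids of F14 and from 673 to 799 TPM in diploids. The sum of 5449 TPM was that of library C69, the lowest for all 3 members, and without it neither gene was called (Tm1 0.51, edgeR adjusted p = 0.417; Zasp66 0.70, edgeR adjusted p = 0.347). Neither was called with limma on log2(TPM + 1) (Tm1 1.06, adjusted p = 0.11; Zasp66 1.39, adjusted p = 0.0719) or in the compared groups alone (Tm1 1.58, edgeR adjusted p = 0.128; Zasp66 2.89, edgeR adjusted p = 0.104), and Tm1 just missed without C76 (edgeR adjusted p = 0.0506). The summed level of 43 genes with serine protease symbols was 15283 TPM in C66, 10585 in C67, 2343 in C68 and 1385 in C69, against 907 to 1166 TPM in diploids of F14. Of 2 fat body genes, Hex70b and Lsd2, neither was called. Hex70b was near 0, at a mean of 0.568 TPM in triploids and 0.185 TPM in diploids of F14, so its lack of a call says little. The part of other tissue in the members' values was not tested.

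**Figure D3:**
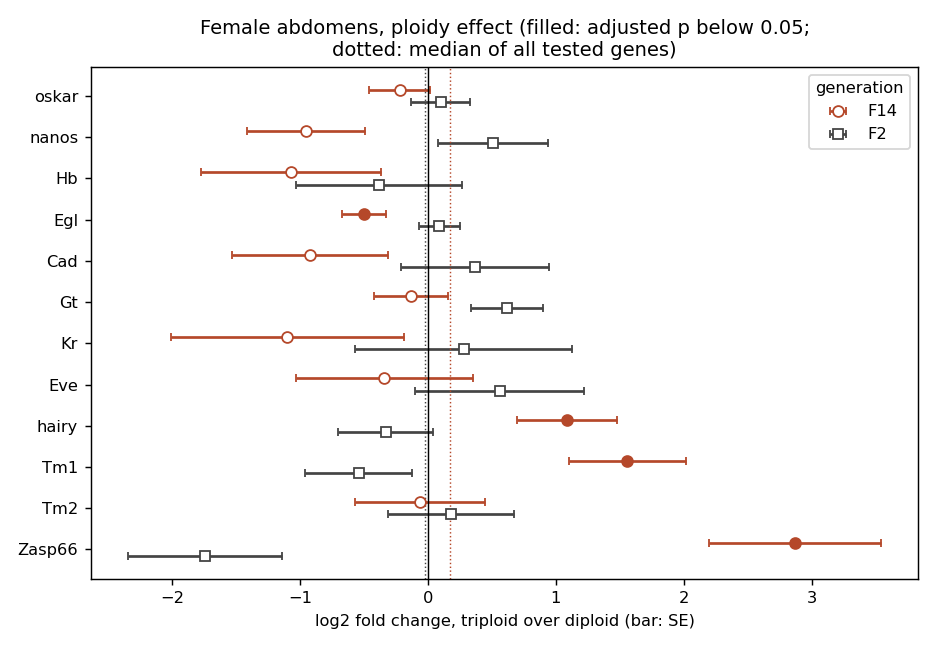
Log2 fold change of triploid over diploid female abdomens (horizontal axis, with SE) for the 3 members and 9 listed genes, at F14 (circles) and F2 (squares), filled where the edgeR adjusted p was below 0.05. All 3 members are open at both generations, with F14 values of -0.22, -0.95 and -1.07, and the dotted lines mark the medians of all tested genes at 0.17 for F14 and -0.02 for F2.

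Across all 16 groups, the 4 female abdomen groups were the highest for each member, without overlap, a split not counted over all genes. Among themselves, neighbours in the order of their means overlapped, except that for Hb every F14 diploid lay above every F2 diploid, at 167 ± 27.1 TPM (SD, n = 4), against 101 ± 26.1 TPM in F2 diploids (SD, n = 4), while the F2 triploid C39 at 148 TPM lay among the F14 diploids. The order for oskar was F14 diploids, F2 triploids, F2 diploids and F14 triploids. That for nanos was the same, with means of 578 ± 83.2, 446 ± 79.5, 319 ± 67 and 263 ± 212 TPM (SD, n = 4 or 5). Hb differed in the middle, with F2 diploids before F2 triploids at 75.0 ± 41.6 TPM (SD, n = 5) and F14 triploids at 69.1 ± 37.7 TPM (SD, n = 4).

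Male abdomens, which lack ovaries, had almost none of the 3 transcripts. Of 16 names for testis and sperm only Thoc4 and LOC100286829 were matched, by synonym, and both were lower in male than in female abdomens, so no marker used here identifies testis. Between diploid males and diploid females all 3 were called lower in males, in a contrast that called 84.4% of tested genes. The log2 fold change was -8.61 ± 0.23 (SE) for oskar (edgeR adjusted p = 8.05e-23), -10.63 ± 0.53 (SE) for nanos (edgeR adjusted p = 1.00e-15) and -8.11 ± 0.67 (SE) for Hb (edgeR adjusted p = 4.36e-12). All 3 calls held without library C46, at -8.74, -10.50 and -8.05. The generations of the sexes differ, F15 and F5 in males and F14 and F2 in females, and cannot be told apart from sex here.

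Within male abdomens oskar was low and present in every library, from 0.69 to 3.23 TPM (12 to 69 counts). Its group means were 2.06 ± 0.240 TPM in diploids and 1.87 ± 0.209 TPM in haploids of F15 (SD, n = 4 each). At F5 they were 1.51 ± 0.851 TPM in diploids, C46 included, and 2.41 ± 0.867 TPM in haploids (SD, n = 5 each). Ploidy was not called for oskar at F15 (log2 fold change 0.26 ± 0.26 SE, edgeR adjusted p = 0.594), where 17.5% of genes were, or at F5 (-0.62 ± 0.23 SE, edgeR adjusted p = 0.143), where 0.382% were. Of the 3 members, 0 were called at F5 by edgeR or DESeq2, with 2 at an unadjusted edgeR p below 0.05. These were oskar and nanos, the latter from 5 counts in a single library. Of all 12308 tested genes, 2384 were at an unadjusted edgeR p below 0.05, and DESeq2 called 696. The F5 value for oskar was -0.90 without library C46 (edgeR adjusted p = 0.0594). C46 had 2.94 TPM of oskar, and the other 4 libraries with its label had 0.69 to 1.47 TPM.

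Of nanos, 15 of 18 male abdomens had a count of 0. The other 3 had 5, 2 and 1 counts, and a count of 0 allows up to 3 counts, or 0.12 to 0.224 CPM (counts scaled to a common library total) at these depths, counting error only. No fold is given between male groups for nanos. A library with 5 counts and 4 with none make up the diploid males of F5.

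Hb was present in trace amounts in male abdomens, and was called between generations and not for ploidy. The diploid males of F15 had 0.61, 0.71, 0.36 and 1.6 TPM, and the haploid males of F15 had 1.03, 0.14, 7.31 and 0.04 TPM. At F5 the diploid males had 0.09, 0.03, 0.32, 0.13 and 0.09 TPM, and the haploid males had 0.1, 0.16, 0.54, 0.29 and 0.08 TPM. On the TPM scale all diploid males of F15 were above all diploid males of F5, C46 included, whereas the haploids overlapped. The margin was narrow, at 0.36 TPM in C98 of F15 against 0.32 TPM in C48 of F5. By counts these libraries had 10 and 11, so the groups overlapped. The share of all genes that separate in this way was not counted. Over both ploidies, in a contrast chosen after the values were seen and which called 17.6% of genes, Hb was higher at F15 (log2 fold change 2.65 ± 0.58 SE, edgeR adjusted p = 0.00242). Without library C88, the haploid male at 7.31 TPM and 140 counts, the value was 1.56 (edgeR adjusted p = 0.0318), and limma on log2(TPM + 1) did not call it (0.72, adjusted p = 0.0929). Ploidy was not called for Hb at F15 (-1.11 ± 0.77 SE, edgeR adjusted p = 0.376; 1.07 without C88, edgeR adjusted p = 0.351) or at F5 (-0.72 ± 0.89 SE, edgeR adjusted p = 0.697), and the same contrast over generations did not call oskar (-0.15 ± 0.18 SE, edgeR adjusted p = 0.594; its sign turned on the TPM scale).

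**Figure D4:**
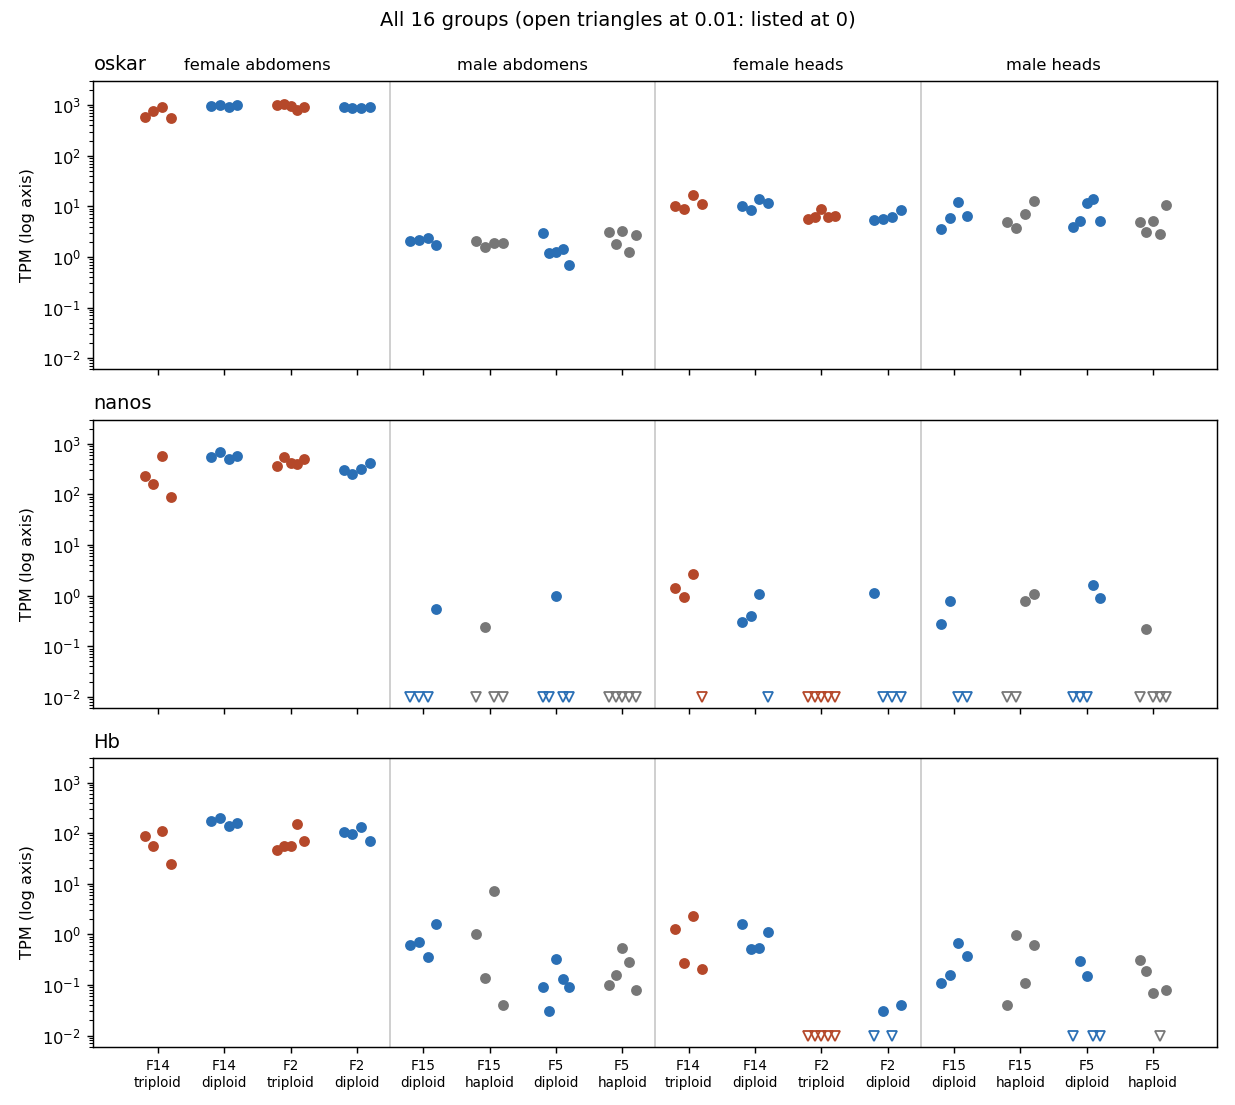
TPM on a log axis for each member in all 16 groups, a point per library, with libraries listed at 0 drawn as open triangles at 0.01. The female abdomens lie at 24.1 TPM or above for every member, while outside them oskar reaches 16.5 TPM, nanos 2.62 TPM and Hb 7.31 TPM.

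Abdomens and heads were compared within a sex. In diploid females all 3 were higher in abdomens, as part of the 86% of 12114 tested genes called in that contrast. The log2 fold change was 6.94 ± 0.17 (SE) for oskar (edgeR adjusted p = 3.06e-24), 10.29 ± 0.47 (SE) for nanos (edgeR adjusted p = 4.81e-17) and 9.89 ± 0.49 (SE) for Hb (edgeR adjusted p = 2.28e-16). In haploid males, where 64.9% of 12387 tested genes were called, oskar went the other way and was lower in abdomens than in heads (-1.28 ± 0.25 SE, edgeR adjusted p = 5.12e-05). The fit behind the haploid male values included library C46 among the diploid males and was not run without it. Hb was not called between haploid male abdomens and heads (1.61 ± 0.77 SE, edgeR adjusted p = 0.0651), and without library C88 its value was 0.52 (edgeR adjusted p = 0.538). It passed with DESeq2 (1.72, adjusted p = 0.0357) and when C89, C87, C82 or C51 was left out (edgeR adjusted p at or above 0.0211).

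Oskar was low but detected in every head, with 51 to 166 counts (2.83 to 16.5 TPM) in each of the 35 libraries. Female heads had 10.4, 8.71, 16.5 and 10.9 TPM in triploids of F14, and 10.1, 8.66, 13.8 and 11.6 TPM in diploids of F14. Female heads of F2 had 5.6, 6.27, 8.72, 6.25 and 6.39 TPM in triploids, and 5.32, 5.61, 6.21 and 8.46 TPM in diploids. Ploidies overlapped at each generation, and on the TPM scale every F14 head was at or above 8.66 TPM and every F2 head at or below 8.72 TPM. Male heads averaged 7.14 ± 3.72 TPM in diploids and 7.11 ± 3.93 TPM in haploids of F15 (SD, n = 4 each), and 7.91 ± 4.41 TPM in diploids and 5.32 ± 3.06 TPM in haploids of F5 (SD, n = 5 each). Between 2.83 and 13.8 TPM, they spread more within a group than the groups differed.

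No contrast between head groups called oskar, in fits of 11785 genes. For ploidy and for sex, 0 of the 2 members tested in heads were at an unadjusted edgeR p below 0.05, and DESeq2 called 0. Over all 11785 genes, 1215 to 3950 were at an unadjusted edgeR p below 0.05 in these contrasts. For ploidy in female heads the log2 fold change was -0.09 ± 0.31 (SE) at F14 (20.9% of genes called, edgeR adjusted p = 0.89) and -0.07 ± 0.30 (SE) at F2 (18.6% called, edgeR adjusted p = 0.905). The difference of these 2 effects was -0.02 ± 0.43 (SE; 6.25% called, edgeR adjusted p = 0.992). By generation it was 0.30 ± 0.30 (SE) in triploids (43.6% called, edgeR adjusted p = 0.426) and 0.31 ± 0.31 (SE) in diploids (16.4% called, edgeR adjusted p = 0.503). In male heads, diploid over haploid, it was -0.16 ± 0.31 (SE) at F15 (0.0255% called, edgeR adjusted p = 0.864) and 0.42 ± 0.28 (SE) at F5 (0.424% called, edgeR adjusted p = 0.646). Diploid males over diploid females gave -0.08 ± 0.22 (SE; 9% called, edgeR adjusted p = 0.883). The signs of the values under 0.2 in size were not stable across the alternatives.

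Of nanos, 21 of 35 heads had a count of 0 and the highest had 5 counts, and the gene was not kept in the head fits. The triploid heads of F14 had 3, 2, 4 and 0 counts, against 0 in all 5 triploid heads of F2, at least 4.64-fold more per counted read against a floor of 3 counts over the group. The diploid heads of F14 had 1, 1, 3 and 0 counts, and those of F2 had 4, 0, 0 and 0 counts.

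Hb divided the female heads by generation. The triploid heads of F14 had 20, 4, 26 and 3 counts (1.28, 0.27, 2.32 and 0.21 TPM), against 0 counts in all 5 triploid heads of F2. The diploid heads of F14 had 37, 9, 10 and 20 counts (1.58, 0.52, 0.54 and 1.11 TPM), against 0, 1, 0 and 1 counts in the diploid heads of F2. All 8 heads of F14 were above all 9 heads of F2, although the levels at F14 stayed at or below 2.32 TPM. How many of all genes separate in this way was not counted. Of 4 listed segmentation genes tested in heads, 1 was called higher and 1 lower at F14 in each ploidy. Cad was the higher one in diploids (4.03 ± 1.32 SE, edgeR adjusted p = 0.0358) and Kr in triploids (1.22 ± 0.35 SE, edgeR adjusted p = 0.00607). Gt was the lower one in both ploidies. Cad was near 0 in these diploid heads, at 0.917 ± 0.977 TPM at F14 and 0.035 ± 0.0404 TPM at F2 (SD, n = 4 each). The lowest F14 library had 0 TPM of Cad. No alternatives were recorded for these listed genes in heads.

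In triploid heads Hb was called higher at F14 (edgeR adjusted p = 0.000612), with at least 27.3-fold more per counted read against a floor of 3 counts over the F2 group. In diploid heads it was called higher too (edgeR adjusted p = 0.0131), with a ratio of pooled counts of 42.6 (exact 95% counting interval 11.4 to 358). The share of genes called in these contrasts was 43.6% in triploids and 16.4% in diploids. Ploidy was not called for Hb in heads of F14 (-0.04 ± 0.91 SE, edgeR adjusted p = 0.987), and at F2 both groups were at or below the floor. In male heads Hb was not called between F15 and F5 over both ploidies (1.75 ± 0.69 SE, edgeR adjusted p = 0.0517), a contrast chosen after the values were seen that called 34.5% of genes. The same contrast gave 0.02 ± 0.21 (SE) for oskar (edgeR adjusted p = 0.952). The male head value of Hb passed with DESeq2 (1.83, adjusted p = 0.0448) and without C83, C81, C42 or C51 (edgeR adjusted p at or above 0.0164). Ploidy was not called for Hb in male heads at F15 (-0.86 ± 0.97 SE, edgeR adjusted p = 0.73) or at F5 (-0.60 ± 1.01 SE, edgeR adjusted p = 0.889), and neither was sex (0.33 ± 0.68 SE, edgeR adjusted p = 0.831; the sign turned on the TPM scale).

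**Figure D5:**
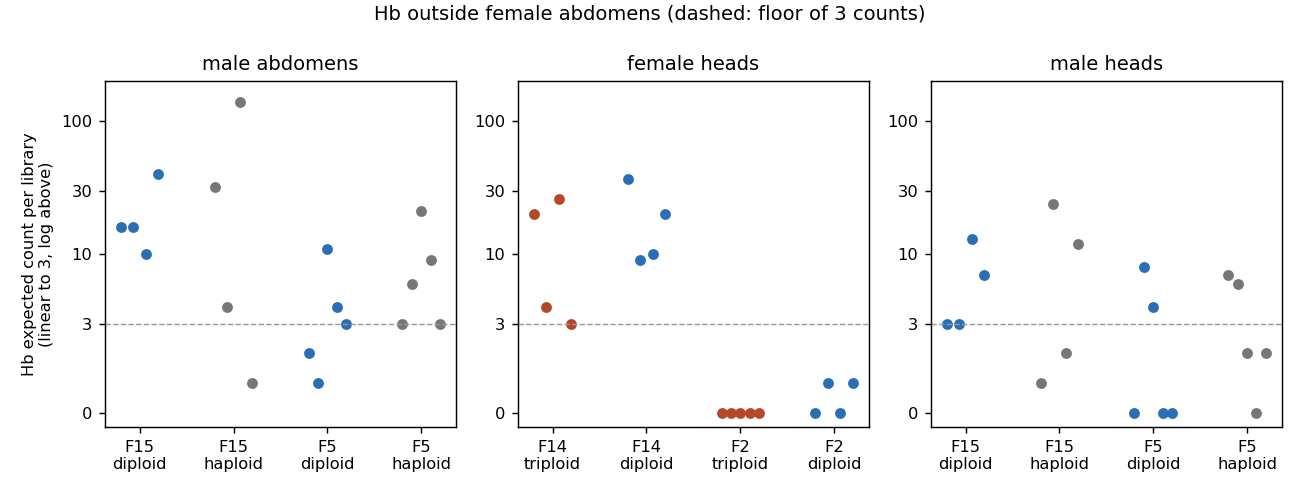
Expected counts of Hb per library in male abdomens, female heads and male heads, on an axis that is linear up to 3 counts and logarithmic above, with the floor of 3 counts dashed. The 8 female heads of F14 hold 3 to 37 counts and the 9 of F2 hold 0 or 1, and the highest male abdomen, a haploid of F15, holds 140.

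Genes whose pattern over the 16 groups was most like that of a member were ranked by Pearson's r of mean log2(TPM + 1), among 11002 genes with a mean of at least 5 TPM in a group, as a description with no test. For oskar the closest were LOC100122583 (r = 0.9953) and LOC100679077 (r = 0.9950). For nanos they were LOC100122122 (r = 0.9985) and LOC100679694 (r = 0.9983), and for Hb LOC100118414 (r = 0.9960) and LOC100118126 (r = 0.9959). The gene table gives no name for these. All 15 genes in the 3 lists of 5 had their highest 4 group means in female abdomens, so r follows mainly the step between female abdomens and the rest.

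Of these 15 genes, 10 had their member's order of means among the female abdomen groups, 3 of 5 for oskar, 3 of 5 for nanos and 4 of 5 for Hb. The genes were chosen by r over group means that include these, so the shared order is partly selected. The share of other genes with that order was not counted. LOC100122122 averaged 578 TPM in triploids and 1205 TPM in diploids of F14, and 873 TPM in triploids and 679 TPM in diploids of F2, the same order as nanos. LOC100118414, closest to Hb, averaged 380 TPM in triploids and 723 TPM in diploids of F14, and 267 TPM in triploids and 372 TPM in diploids of F2, an order unlike that of Hb. The members were less close to each other, with r of 0.984 between oskar and nanos, 0.967 between oskar and Hb and 0.991 between nanos and Hb.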

How the data were processed

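The expected counts and TPM per gene were deposited by the authors as 1 table each. STAR 2.7.11a and RSEM 1.3.1 are named in the submitters' processing notes. No source used here names the genome build. Per the labels' protocols RNA was poly(A)-selected without DNase treatment.

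Genes are named as the tables name them, and all 14621 symbols matched a RefSeq gene table (assembly Nvit_psr_1.1, used for names only). Groups were read from the library titles. Of the expected counts 18.2% were not whole, and all were rounded for the count test. Abdomens, heads, females and males were fitted separately over all genes (edgeR 4.0.16, R 4.3.3, TMM, filterByExpr, quasi-likelihood F test, Benjamini-Hochberg), with standard errors taken from the F statistic. Levels are TPM. Alternatives were RLE size factors, no filter, DESeq2 1.42.0, limma 3.58.1 on log2(TPM + 1) or log2(TPM + 0.1), the compared groups alone, and leaving out each library. The edgeR fit was tested on simulated counts. Of 120 pairs of libraries within groups none agreed within sampling noise (chi-square per gene at least 4.91).

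The members, lists and contrasts were chosen with earlier results of these data known. The male generation contrasts and the test of the ratio difference were added after the values were seen. Named genes are the members, up to 6 matched genes a list, and the genes most like each member. A count of 0 allows up to 3 counts, and intervals and floors cover counting error only.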

Additional observations from a re-analysis of the deposited data

Results flagged for a closer look

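In 5 cases a single library stood far from the rest of its group by a gap test (Dixon). It was applied to the TPM of 38 combinations of member and group with more than 3 counts in some library. Chance alone would flag about 1 in 20 if values were normally distributed, which does not hold for counts near 0. For Hb the triploid abdomen C39 of F2 had 148 TPM and the next library 69 TPM. For Hb the haploid male abdomen C88 of F15 had 7.31 TPM and the next 1.03 TPM. For oskar the triploid head C33 of F2 had 8.72 TPM and the next 6.39 TPM. For nanos the diploid male abdomen C48 of F5 had 0.99 TPM from 5 counts and the diploid female head C21 of F2 had 1.11 TPM from 4 counts, with the other libraries of their groups at 0.

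The estimated ploidy effects on the nanos to oskar ratio in female abdomens lay -1.39 apart on the log2 scale, as F14 minus F2. An exact permutation of ploidy within generation gave adjusted p = 0.0177 over 3 ratios, and 0.0585 to 0.0762 without any 1 diploid library of F14. Its null is no ploidy effect at either generation, so it does not test equal effects. The effect at F14 was -0.96 and at F2 was 0.43. The test was chosen after the values were seen.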

How the results depend on the processing

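Of 942 alternative values for the 54 results on the members, 872 kept their direction and their side of the threshold. With DESeq2 nanos passed for ploidy at F14 (-1.0), for the difference of the ploidy effects (-1.48) and in triploids between generations (-0.98, with oskar at -0.55), and Hb passed between generations in male heads (1.83) and between haploid male abdomens and heads (1.72). With limma on log2(TPM + 1) nanos passed in the same 3 contrasts (-1.45, -1.94 and -1.07) and Hb for ploidy at F14 (-1.45), none of which passed with 0.1 added to TPM, while Hb in male abdomens between generations was lost (0.72). Without library C46, an alternative chosen after seeing the data, the difference for nanos (-1.46) and the triploid generation contrast for nanos (-0.98) and oskar (-0.53) passed. In the compared groups alone the difference for nanos (-1.45) and the diploid generation contrast for oskar (-0.24) passed. The causes were not tested.

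On the TPM scale these signs turned, with pseudocounts of 1 and 0.1: oskar between generations in diploid female abdomens (0.09 and 0.09) and in male abdomens (0.07 and 0.15), oskar for ploidy in female heads of F2 (0.05 and 0.06), of F14 (0.05 and 0.05) and in male heads of F15 (0.02 and 0.02), and Hb between the sexes in heads (-0.22 and -0.45). Hb for ploidy in male abdomens of F15 turned with 0.1 alone (0.17), and the Hb to nanos ratio at F14 turned with 1 added to TPM (0.01).

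Leaving out 1 library at a time gave these ranges where a call or a sign moved. In female abdomens nanos ran from -1.52 to -0.69 for ploidy at F14, from -2.03 to -1.20 for the difference and from -1.55 to -0.72 between generations in triploids, where oskar ran from -0.60 to -0.44 and Hb from -0.51 to 0.20. For ploidy Gt ran from -0.52 to 0.03 at F14 and Kr from -0.06 to 0.36 at F2. The Hb to nanos ratio at F14 ran from -0.12 to 0.17, and the difference of the nanos to oskar ratio from -1.74 to -1.08. Elsewhere Hb ran from -1.71 to 1.07 for ploidy in male abdomens of F15, from 0.52 to 2.19 between haploid male abdomens and heads, from 1.15 to 2.31 between generations in male heads, from -1.30 to 0.34 for ploidy in male heads of F15, from -0.84 to 0.25 in female heads of F14 and from -0.23 to 0.57 between the sexes in heads. Oskar in heads ran from -0.20 to 0.15 for ploidy in females of F2, from -0.24 to 0.12 for the difference, from -0.42 to 0.10 for ploidy in males of F15, from -0.11 to 0.16 between generations in males and from -0.21 to 0.03 between the sexes.

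The counts of genes called, which give the background shares, moved by more than 1.5 times in several contrasts. In female abdomens the ploidy count was 429 to 3346 over the alternatives at F14 (2447 in the reported fit) and 125 to 2254 at F2 (922). The generation count was 2584 to 5995 in triploids (5195) and 14 to 2499 in diploids (21). In male abdomens it was 0 to 696 for ploidy at F5 (47) and 1182 to 2668 between generations (2163). In female heads it was 1882 to 3659 for ploidy at F2 (2191), 402 to 2125 for the difference (736) and 1663 to 4526 between generations in diploids (1930). In male heads it was 2 to 178 for ploidy at F5 (50), 0 to 21 at F15 (3) and 2537 to 4244 between generations (4061).

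Of the 5 genes most like each member, 3 were shared with a pseudocount of 0.1 for each, and 0, 1 and 0 with Spearman's rho for oskar, nanos and Hb. Hb was filtered out, and so has no value, in triploid heads between generations with those groups alone. No paired analysis was possible because the labels carry library codes and no replicate numbers shared between groups, and do not say whether a head and an abdomen came from the same animals.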
